A study of Drosophila melanogaster with 10 samples.

Results

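The X chromosome, the first chromosome of Drosophila melanogaster, came from strain Z30 on 5 head RNA arrays and from strain Fr on the other 5, so this comparison uses all 10 arrays of the series. The arrays were assigned by the first letter of the genotype in the labels, where Z stands for Z30 and M for Fr. The X came from Z30 in the parent Z30 (2 arrays) and in the lines ZMM, ZMZ and ZZM (1 array each), and from Fr in the parent Fr (2 arrays) and in the lines MMZ, MZM and MZZ (1 array each). The letters after it give the origin of the other two large chromosomes, the second and the third, in the same way. The 8 genotypes therefore hold every combination of the 3 origins, and 4 pairs of them differ in the labelled origin of the X alone. All samples were total RNA from the heads of nonvirgin females aged 3 to 5 days, with 100 to 200 heads in a sample. The labels give no treatment, no origin for the fourth chromosome or the mitochondria, and nothing that says whether both arrays of a strain came from separate cultures. P-values here measure the spread between arrays around the model, which rests on the repeats of the 2 parents and on departures of single arrays from additivity, and that spread may be technical. The series concerns behavioural differentiation between Z and M flies, and Z30 is known as a strain from Zimbabwe, where females tend to refuse males of cosmopolitan strains.

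Female flies carry a pair of X chromosomes, and the equalising of X expression with the autosomes that males need is held off in females by the splicing regulator Sxl. Exchanging the X replaces the alleles of all X-linked genes, together with their own promoters and enhancers, and it can also alter autosomal genes through regulators encoded on the X. In the head, X-linked genes serve the nervous system, the eye, the antenna, the fat body that surrounds the brain and the cuticle.

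The arrays were not alike in quality. Arrays Fr 1 and Z30 1 had highest signals of 26039 and 28895, against 46285 to 59815 on the other 8, and each X origin holds 1 of the pair. On every array this highest signal was that of 1 probe set, for the yolk protein gene Yp1. The bacterial control probe sets had geometric means of 651 on Fr 1 and 538 on Z30 1, against 1500 to 2179 on the other 8. Results are therefore also given with these 2 arrays as a block, here called the array block. The MZM array, which carries the Fr X, also stood somewhat apart (median rank correlation 0.905 to all others, where the remaining 7 reached 0.929 to 0.945). Head markers were present, since the photoreceptor channel gene trp had signals of 4407 to 14075 and the glial gene repo 341 to 786. Of the 3 neuronal markers measured, nSyb had 554.5 to 2958.8, while elav and brp were dim, at 18.1 to 172 and 5.3 to 165. The summed signal of the 4 ovary markers was 295 to 696 with the Fr X and 343 to 682 with the Z30 X, the brightest being Cp36 at 74.9 to 559.7 and the germline gene vas having 7.5 to 85.8. That of the 4 markers of male reproduction was 499 to 905 and 336.5 to 773, with Mst84Da at 131 to 357 and dj at 3.0 to 65.5. The summed signal of the 4 fat body markers was 61270 to 136526 with the Fr X and 68525 to 139985 with the Z30 X, and that of the 3 neuronal markers 739 to 2920 and 1108 to 3206. In such bulk samples, fewer cells of a type and less RNA per cell cannot be told apart.

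Of the few probe sets called for X origin, most belonged to genes of the X itself. Signals were floored at 38.9, log2 was taken, and the X term of an additive model of the 3 chromosome origins was tested with limma over 8379 probe sets (Benjamini-Hochberg adjusted p under 0.05). This called 5 probe sets (0.0597% of those tested), 2 higher (0.0239%) and 3 lower (0.0358%) with the X from Z30. Of these, 4 belong to genes of the X, 0 to genes of another chromosome, and 1 has no single gene assigned. With the array block there were 9 calls (0.107%), 4 higher (0.0477%) and 5 lower (0.0597%). Among the 9, 7 were X-linked and 2 had no single gene assigned. On the 4 large autosomal arms limma called 0 of 6096 probe sets in either fit, with 63 and 161 at an unadjusted p under 0.05.

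Below the calling threshold the share of probe sets was also higher on the X, though many of these probe sets lay elsewhere. At an unadjusted p under 0.05 stood 207 probe sets (2.47%), 88 higher (1.05%) and 119 lower (1.42%) with the Z30 X. Among them, 111 were X-linked, of 1305 tested there (8.51%), and 63 lay on 2L, 2R, 3L or 3R, of 6096 (1.03%). Arm by arm the autosomal shares were 0.908%, 1.94%, 0.912% and 0.485%. With the array block there were 187 higher (2.23%) and 204 lower (2.43%), 4.67% in all, and the shares were 13.6% on the X and 2.64% on the 4 autosomal arms. When each array was left out in turn, the X-linked share ranged from 6.44% to 11.3% and the autosomal share from 0.591% to 3.82%. In the 6 lines alone these shares were 12.8% (167 probe sets) and 8.09% (493), so the contrast was smaller there and most of the 736 probe sets were not X-linked. The model terms for the second and the third chromosome, which use the same 10 arrays, had 7.47% and 7.95% on their own arms and 1.96% and 1.75% on the other large arms.

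A plain count of arrays gave a similar picture. The 5 arrays with the Z30 X lay wholly above or wholly below the 5 with the Fr X for 79 of the 8379 probe sets (0.943%), 28 higher (0.334%) and 51 lower (0.609%) with the Z30 X. On the X this held for 53 of 1305 (4.06%), 19 of them higher (1.46% of the X-linked probe sets) and 34 lower (2.61%). On the 4 autosomal arms it held for 13 of 6096 (0.213%). Where the fitted difference also exceeded 2-fold, the overall share was 0.263%, with 15 X-linked probe sets (1.15%), 6 higher and 9 lower, and 2 autosomal ones. The median fitted difference was -0.03 log2 units over the X-linked probe sets and 0.01 over the autosomal ones, and 600 of 1305 and 3097 of 6096 were positive. The median absolute difference was 0.23 and 0.17. No test of these shares or medians was made, and every array is scaled to the same trimmed mean.

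**Figure D1:**
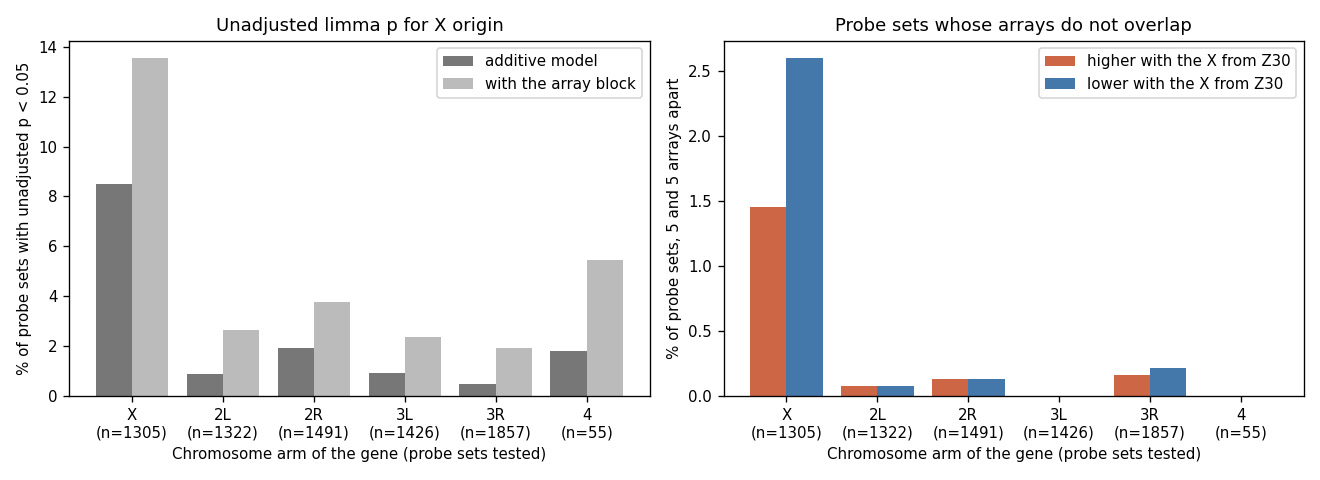
Left, percentage of tested probe sets on each chromosome arm with an unadjusted limma p under 0.05 for X origin, in the additive model (dark) and with the array block (light); right, percentage whose 5 arrays with the Z30 X lie wholly above (orange) or below (blue) the 5 with the Fr X. On the X the left bars reach 8.51% and 13.6%, and on no other large arm do they exceed 1.94% and 3.76%.

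Among X-linked genes that passed, those of detoxification and amino acid metabolism come first. Tat encodes tyrosine aminotransferase, the first enzyme of tyrosine breakdown. Its signals were 3116 and 3224 on Fr 1 and Fr 2, 3026 on MMZ, 4396 on MZM and 3249 on MZZ, against 1259 and 1537 on Z30 1 and Z30 2, 1380 on ZMM, 728 on ZMZ and 1191 on ZZM. The groups did not overlap, with MZM the highest array of the Fr group and ZMZ the lowest of the Z30 group. The signal of Tat was 2.90-fold lower with the Z30 X (log2 difference -1.54 ± 0.20, SE, adjusted p = 0.0203 in limma, 0.0153 with the array block). For Tat and all genes below, the values are probe signals. Whether the probes match the Z30 and Fr alleles equally was not tested.

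Mgstl encodes a microsomal glutathione S-transferase, a membrane enzyme of detoxification, and its called probe set had 8097, 8710, 7921, 8788 and 8323 on Fr 1, Fr 2, MMZ, MZM and MZZ. On Z30 1, Z30 2, ZMM, ZMZ and ZZM it had 4432, 4099, 2783, 2717 and 3796. The 5 arrays with the Fr X lay close together, and the highest Z30 array stayed well below them. The signal of this probe set was 2.50-fold lower with the Z30 X (-1.32 ± 0.16, adjusted p = 0.0203 in limma, 0.0124 with the block). The gene has 3 probe sets, all lower with the Z30 X. The dimmest had -1.33 ± 0.23 with groups apart (adjusted p = 0.0912 in limma), and the brightest -0.91 ± 0.20 with overlapping groups (adjusted p = 0.396).

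CG9360 encodes an enzyme of the short-chain dehydrogenase/reductase type. With the Fr X its signals were 1220 and 848 in the parent, 741 on MMZ, 753 on MZM and 571 on MZZ. With the Z30 X they were 1381 and 1886 in the parent, 2244 on ZMM, 2216 on ZMZ and 2192 on ZZM. The parent arrays Fr 1 and Z30 1 lay nearest to each other, at a log2 difference of 0.18 between them, and the 3 lines with the Z30 X were almost equal. The signal of CG9360 was 2.68-fold higher with the Z30 X (1.42 ± 0.19, adjusted p = 0.0203 in limma, 0.0161 with the block). Within the 8 arrays outside the block the difference was 1.56.

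CG15209, whose function is not given here, had 2222, 2261, 1849, 2458 and 2312 on Fr 1, Fr 2, MMZ, MZM and MZZ. On Z30 1, Z30 2, ZMM, ZMZ and ZZM it had 4034, 5228, 5136, 4533 and 5732. Of the X-linked genes called, it had the most even difference between matched genotypes, from 0.99 to 1.29 log2 units. Its signal was 2.24-fold higher with the Z30 X (1.16 ± 0.15, adjusted p = 0.0203 in limma, 0.0128 with the block).

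A further 3 X-linked genes passed only with the array block. Obp18a belongs to the odorant-binding proteins, small secreted proteins that carry odorants in the fluid around sensory neurons. It had 5694, 6417, 6364, 8171 and 5698 on Fr 1, Fr 2, MMZ, MZM and MZZ, and 1806, 2815, 2283, 3270 and 2572 on Z30 1, Z30 2, ZMM, ZMZ and ZZM. It was 2.54-fold lower with the Z30 X (-1.35 ± 0.21, adjusted p = 0.0591 in limma, 0.0153 with the block).

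CCT2 encodes a subunit of the ring-shaped CCT chaperonin, which folds actin and tubulin. Its called probe set had 994, 816, 807, 808 and 548 with the Fr X, in the same order of arrays, and 2872, 3380, 2915, 1379 and 2132 with the Z30 X. It was 3.17-fold higher with the Z30 X (1.67 ± 0.27, adjusted p = 0.0862 in limma, 0.0491 with the block). The other CCT2 probe set had 575 ± 69.9 and 690 ± 44.6 (SD, n = 5 each) and a log2 difference of 0.28 ± 0.18 with overlapping groups, so the probe sets of this gene disagree in size.

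Nep6 encodes a neprilysin, a membrane metallopeptidase that cleaves peptides. In the same order its signals were 918, 689, 444, 925 and 489 with the Fr X and 438, 235, 220, 193 and 192 with the Z30 X. The groups nearly touched, since Z30 1 at 438 lay just under MMZ at 444. The log2 difference was -1.45 ± 0.31 (2.73-fold lower, adjusted p = 0.396 in limma, 0.0491 with the block).

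**Figure D2:**
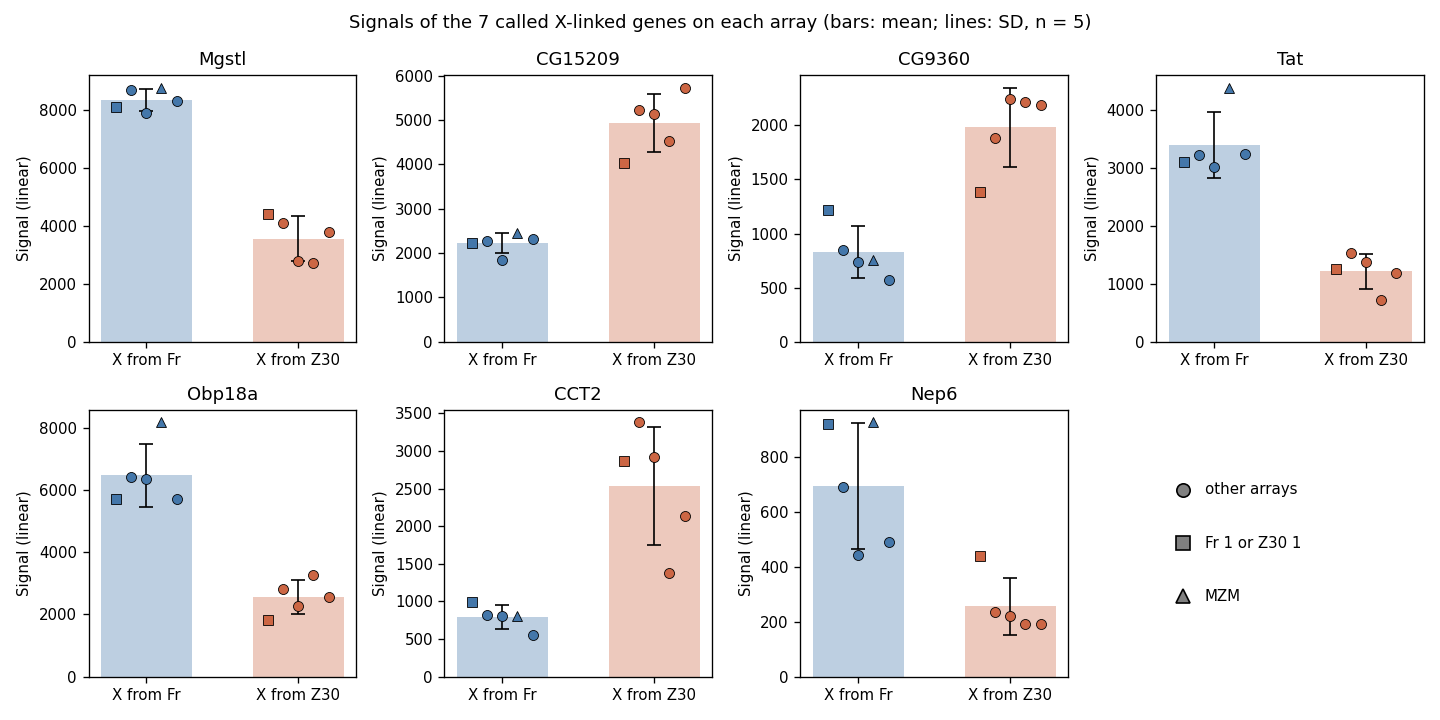
Signal on the deposited linear scale (vertical axes, each starting at 0) of the 7 X-linked genes called with the array block, on each of the 5 arrays with the Fr X and the 5 with the Z30 X, with bars for means and lines for SD (n = 5). The groups do not overlap in any panel, and squares (Fr 1, Z30 1) and triangles (MZM) show the arrays that stood apart.

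The 2 called probe sets with no single gene assigned were 143461_at and 142855_at. Probe sets annotated with no gene and with several genes were treated alike here. The first had 6361 to 9112 with the Fr X and 2021 to 3297 with the Z30 X, 2.76-fold lower (-1.47 ± 0.19, adjusted p = 0.0203 in limma, 0.0128 with the block). The other was called with the block alone, at 65.9 to 94.8 on 4 arrays with the Fr X and 343 on MZM, against 564 to 710 with the Z30 X. Its log2 difference was 2.46 ± 0.37 (adjusted p = 0.0591 in limma, 0.0410 with the block).

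These calls rested on nearly every array, whereas the size of the differences did not. The same 5 were called without Z30 1. Without MZM none of the 5 was called, and 142855_at was the only call. Without any other single array limma called 0. Over the 10 omissions, 145 to 430 probe sets had an unadjusted p under 0.05. The log2 difference over the same omissions lay between -1.70 and -1.39 for Tat, between -1.42 and -1.25 for Mgstl, between 1.38 and 1.53 for CG9360 and between 1.14 and 1.22 for CG15209. Their highest adjusted p was 0.223. With the array block but without MZM there were 9 calls, which held 7 of the 9, CG15209, CG9360, Mgstl, Obp18a, Tat and both unassigned probe sets, while CCT2 and Nep6 had adjusted p = 0.0963 and 0.0793. For each of the 9 probe sets an exact two-sided permutation test of the difference between the 5 and 5 arrays gave p = 0.00794, the smallest that this design allows. Any probe set whose groups do not overlap gives this value, and the test leaves out the other chromosomes and the block, so it adds nothing to that observation.

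Since the genotypes are complete, the X could be compared within 4 backgrounds of the other chromosomes: ZMM against Fr, ZZM against MZM, ZMZ against MMZ, and Z30 against MZZ, with the 2 arrays of a parent averaged. Each line is 1 array, so these values have no error of their own. The log2 differences of Tat were -1.20, -1.88, -2.06 and -1.22 in that order, those of Mgstl -1.59, -1.21, -1.54 and -0.97, and those of CG9360 1.14, 1.54, 1.58 and 1.498. Obp18a had -1.40, -1.67, -0.96 and -1.34. CCT2 varied more, from 0.77 in ZMZ against MMZ to 2.51 in Z30 against MZZ, and Nep6 ranged from -2.27 in ZZM against MZM to -0.61 in Z30 against MZZ. That all 9 called probe sets had 1 direction in the 4 backgrounds follows from their groups not overlapping and is no further support. Over all 8379 probe sets, 760 (9.07%) had the same sign in the 4 backgrounds. Among X-linked probe sets 224 of 1305 (17.2%) did so, and on the 4 autosomal arms 433 of 6096 (7.10%). None of the 7 X-linked genes was called for the second or the third chromosome in the same model (adjusted p of 0.998 or more), where their log2 differences lay between -0.35 and 0.38.

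Beyond the calls, 38 of 1305 X-linked probe sets, all of other genes, met a common set of criteria, 13 higher and 25 lower with the Z30 X. The criteria were an unadjusted p under 0.05 in both fits, groups that do not overlap, and the same sign in all 4 backgrounds. On the autosomes 2 met them, of 6096 probe sets tested on the 4 large arms and 55 on chromosome 4. Groups that do not overlap were alone found for 4.06% of X-linked probe sets, 0.213% on the 4 large autosomal arms and 0.943% of all. None of these passed the adjusted test in either fit, so the values that follow are descriptions, and their signs in the backgrounds were fixed by the criteria. The 8 with the largest differences in each direction are given.

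Among the 8 with higher signals, Tob, whose mammalian relatives restrain cell proliferation, had the largest difference. Its signals were 629, 549, 984, 146 and 1010 on Fr 1, Fr 2, MMZ, MZM and MZZ, and 1705, 2298, 3016, 4229 and 2573 on Z30 1, Z30 2, ZMM, ZMZ and ZZM. MZM was far the lowest array, and without it the log2 difference moved from 2.29 ± 0.38 to 1.88 (adjusted p = 0.0879 in limma, 0.0669 with the block, and 0.0204 with the block and without MZM). SrpRalpha, a subunit of the receptor that brings ribosomes making secreted proteins to the endoplasmic reticulum, had 1.34 ± 0.30, and its other probe set -0.40 ± 0.57. CG1636, of unstated function, had 1.08 ± 0.29, with differences of 1.95 between Z30 1 and Fr 1 but 0.34 between Z30 2 and Fr 2. The kinetochore gene Kmn1 had 0.83 ± 0.29. rdgB encodes a phosphatidylinositol transfer protein that photoreceptors need for the light response. It had 277 to 358.5 with the Fr X and 388 to 920 with the Z30 X, the highest on ZMZ (0.81 ± 0.27). CG34348 and CG15046, also of unstated function, had 0.81 ± 0.22 and 0.69 ± 0.22. sov, a gene of heterochromatin and of the ovary, had 0.67 ± 0.24.

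Among the 8 with lower signals, slpr stood first. It encodes a kinase that activates the JNK pathway, and it had 168 to 377 with the Fr X and 35.7 to 112 with the Z30 X, with ZZM under the floor (-2.06 ± 0.35, adjusted p = 0.0879 in limma, 0.0546 with the block). Ldsdh1 encodes a dehydrogenase of lipid droplets and Antdh an antennal dehydrogenase, both of the same enzyme type as CG9360. Ldsdh1 had 4959 to 6910 with the Fr X and 897 to 3188 with the Z30 X, where Z30 2 was far below the others (-1.31 ± 0.33). Antdh had 1314 to 1565 and 503 to 1136 (-0.92 ± 0.22). Coq5, an enzyme of ubiquinone synthesis, had -1.25 ± 0.32. The serine protease gene Ser7 had -1.11 ± 0.29, with 1729 on ZZM just below the 1772 of MZZ. out, a gene of the monocarboxylate transporter family, had 428 to 542 against 200 to 275, with little spread in either group (-0.99 ± 0.20). The pigmentation gene y (yellow) had 224 to 289 against 73.9 to 214, lowest on ZMM, and without ZMM its difference was -0.57 in place of -0.93 ± 0.31. CG12177, of unstated function, had -0.89 ± 0.21. The 2 autosomal genes that met the criteria were the kinesin gene Klp31E on 2L (1.02 ± 0.40, or 0.55 without MZM) and CG4927 on 2R (-1.52 ± 0.38), with adjusted p = 0.999 and 0.617 in limma.

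**Figure D3:**
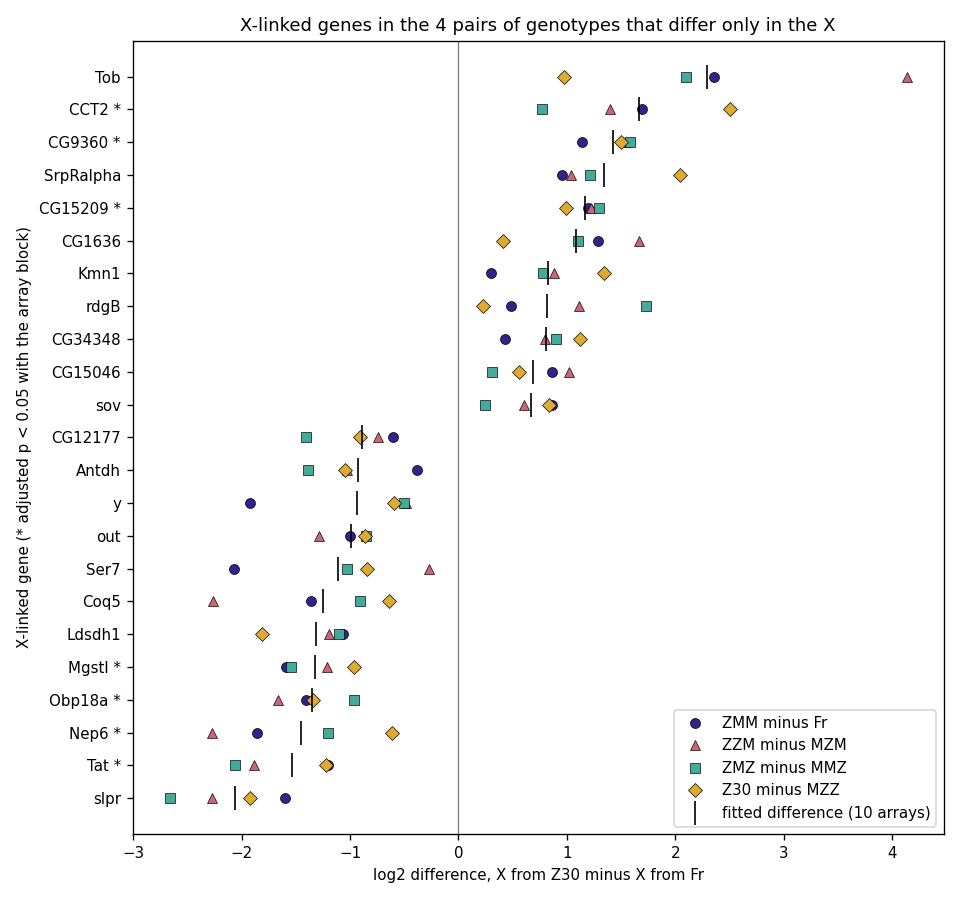
Log2 difference between X from Z30 and X from Fr (horizontal axis) in each of the 4 pairs of genotypes that differ in the X alone (symbols) and as fitted over 10 arrays (vertical ticks), for the X-linked genes named above (vertical axis; asterisks mark the 7 called with the array block). Every symbol of a gene lies on the same side of 0, which follows from groups that do not overlap, and the spread is narrow for CG15209 and wide for Tob and Nep6.

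The genes around the called ones were also looked at. For each of the 7, the 3 nearest tested genes on either side in the annotation's order were taken, 42 in all. None was called, 0 had groups that did not overlap (4.06% of all X-linked probe sets). At an unadjusted p under 0.05 there were 2 (8.51% of all X-linked probe sets). These counts lie near the X-linked shares, and since the 7 were selected by their calls, their contrast with the neighbours is no finding. The 2 were Dus2, the second tested gene before Tat (-1.004, with overlapping groups), and CG7766, next to CCT2 (-0.47). The direct neighbours of CG9360, inaF-A and Karl, had -0.16 and -0.47, and those of Obp18a, CG7423 and RhoGAP18B, had -0.17 and -0.04.

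The parents and the lines share no array, so genes chosen on the parents could be followed in the lines. Of 1305 X-linked probe sets, 71 differed between the mean of the 2 Z30 arrays and that of the 2 Fr arrays by more than 1 log2 unit. With the X from Z30 in the 6 lines, 42 of these (59.2%) differed in the parental direction, with a median of 0.25 log2 units that way. Of 331 autosomal probe sets chosen alike, 166 (50.2%) did, with a median of 0.01. With a limit of 0.5 log2 units in the parents the shares were 204 of 329 (62.0%) and 774 of 1475 (52.5%). With Fr 2 and Z30 2 alone as the parents they were 60 of 117 (51.3%) and 189 of 506 (37.4%). In each choice the X-linked share was the higher, although many X-linked differences of the parents did not recur in the lines.

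**Figure D4:**
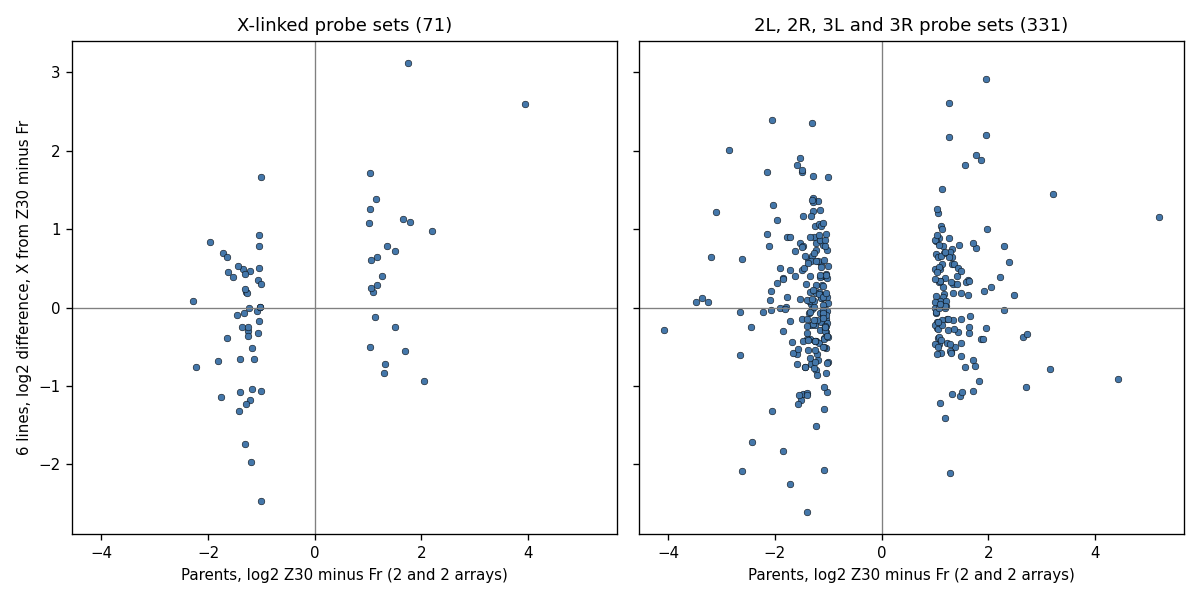
Log2 difference with the X from Z30 in the 6 lines (vertical axis) against the log2 difference between the parents (horizontal axis), for probe sets that differed by more than 1 log2 unit between the parents, 71 X-linked (left) and 331 autosomal (right). On the left 42 of 71 points lie in the lower left or upper right quadrant, and on the right 166 of 331.

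Genes of the same pathways were counted over lists of known members, each gene by its brightest tested probe set and beside a share of 50.3% positive and a median of 0.00 over all probe sets. In tyrosine breakdown, 1 of 6 genes was called, Tat, and it is the only X-linked member. The other 5, the enzymes that act after Tat, were not called and lay between -0.36 and 0.29, with Faa, the last enzyme of the pathway, at -0.29 ± 0.19. Of the 8 CCT subunits, which work as 1 complex, 0 were called without the block in limma and 1, CCT2, was called higher with it. CCT6, the other X-linked subunit, had -0.12 ± 0.23, and the 6 autosomal ones lay between -0.17 and 0.16. Of 6 tested neprilysins 0 were called without the block and 1, Nep6, was called lower with it. All 6 had negative fitted differences (median -0.33), but only Nep6 had groups that did not overlap. Nep1, also X-linked, had 528 to 755 with the Fr X and 341 to 551 with the Z30 X (-0.38 ± 0.21).

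All 5 tested X-linked odorant-binding protein genes had lower fitted values with the Z30 X (median -0.38, or -0.25 without MZM). Of them 1, Obp18a, was called with the block, and it alone had groups that did not overlap. Obp19b and Obp19c had -0.38 ± 0.45 and -0.38 ± 0.46. Obp19b, Obp19c and Obp19d did not keep the same sign in the 4 backgrounds, with 0.47, 0.22 and 0.17 in ZMM against Fr. Obp8a had 200 to 473 with the Fr X and 26.7 to 295 with the Z30 X, with Z30 1 under the floor (-0.94 ± 0.54), and Obp19d, the brightest, -0.35 ± 0.19. Among the X-linked glutathione transferases, GstT4 had 794 to 1166 with the Fr X and 518 to 759 with the Z30 X, apart but not called (-0.61 ± 0.19), whereas GstT3 differed by 0.00 ± 0.28. Of 10 tested X-linked P450 genes 0 were called in limma in either fit, and 3 had an unadjusted p under 0.05, where 8.51% of all X-linked probe sets and 2.47% of all probe sets did. Cyp18a1, which inactivates the moulting hormone ecdysone, had 524 to 811 against 260 to 459 (-0.88 ± 0.24), and Cyp6t1 423 to 546 against 288 to 399 (-0.48 ± 0.20). Cyp4s3 was higher, with 42.4 to 102 on 4 arrays with the Fr X, 251.6 on MZM, and 227 to 554 with the Z30 X (1.92 ± 0.47, adjusted p = 0.581 in limma, or 0.0172 with the block and without MZM).

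The remaining lists, some of them with autosomal members, showed no call. In the additive model, limma called 0.0597% of all probe sets. At an unadjusted p under 0.05 were 2.47% of all and 8.51% of the X-linked ones. In lists this short, counts of 0 lie near these shares and are no finding about the genes. The 3 yolk protein genes, all X-linked and highly expressed in the fat body of females, had means of 48664 ± 13546, 43724 ± 10916 and 37155 ± 9860 (SD, n = 5) with the Fr X for Yp1, Yp2 and Yp3. With the Z30 X they had 48630 ± 12045, 40874 ± 9121 and 35580 ± 8794, with overlapping groups throughout. Of 7 tested X-linked genes of eye pigment and its transport 0 were called in limma and 0 had an unadjusted p under 0.05, the largest difference being that of rb, an adaptor subunit for pigment granules (0.42 ± 0.25). The same held for the 5 tested genes of dosage compensation and X counting, 2 of them X-linked, with the autosomal Clamp at 0.40 ± 0.22 and the X-linked acetyltransferase gene mof at -0.94 ± 0.57, and for 4 pentose phosphate genes, 1 of them X-linked, and 2 X-linked ribosomal protein genes. Of 14 tested X-linked genes of neuronal signalling 10 were positive, with a median of 0.21, or 0.01 without MZM. The 11 tested synaptic vesicle genes, of which 1 is X-linked, all had positive fitted differences. Their median was 0.32, or 0.19 without MZM, and none was called. The groups overlapped for each of them, and none kept the same sign in the 4 backgrounds. In Z30 against MZZ all but Synj (0.40) were lower with the Z30 X, from -1.41 for VGlut to -0.27 for Csp. The part of the MZM array in these list values was not tested further.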

How the data were processed

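Total RNA from female heads was hybridised to oligonucleotide arrays with 14010 probe sets. The values deposited by the authors are intensity on a linear scale, with a 2% trimmed mean of 500.1 on every array; the software behind them is not given in the sources used here. Depth does not apply, and the number of arrays limits the precision.

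The 44 control probe sets were left out, signals under the pooled 20th percentile (38.9) were set to it, log2 was taken, and 8379 of 13966 probe sets, those whose mean exceeded the 40th percentile, were tested. Symbols and chromosome arms came from the platform annotation, updated through Entrez identifiers to Release 6 for 12394 of 12443 probe sets with 1 gene. No sequence was used, so differences between the strains in the sequence under the probes were not examined. limma 3.58.1 in R 4.3.3 (lmFit, eBayes with a mean-variance trend) fitted the origins of the 3 chromosomes over 10 arrays (6 residual degrees of freedom, or 5 with the array block), with Benjamini-Hochberg adjustment over all 8379 and a threshold of 0.05. Log2 differences are Z30 minus Fr, and understate changes near the floor. The fit was also run on simulated data with independent errors and no effects of the other chromosomes. These had no array block and no array standing apart, so that run cannot show how far the calls depend on single arrays.

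Named were all genes called in either fit, then up to 8 X-linked and 4 autosomal genes in each direction that met the criteria in the text, and members of gene lists. GstT4, Cyp18a1, Cyp6t1, Cyp4s3, Nep1 and the neighbours Dus2, CG7766, inaF-A, Karl, CG7423 and RhoGAP18B were chosen after their values were seen, and so was the combination of the array block with the omission of MZM or of the variance trend. The comparison, lists and rules were chosen with earlier results of these data known.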

Additional observations from a re-analysis of the deposited data

Results flagged for a closer look

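For 27 named probe sets, each group of 5 arrays was searched for a single array far from the rest (gap to the nearest array over the range, on the log2 scale, above Dixon's critical value). Of 54 groups 6 had one, and chance alone gives about 1 in 20. Among arrays with the Fr X, MZM was far above the other 4 for Tat (4396, against 3026 to 3249) and for 142855_at (343.3, against 65.9 to 94.8), and Fr 1 for SrpRalpha (1662.6, against 848 to 914). Among arrays with the Z30 X, Z30 1 was far above for Nep6 (437.6, against 192 to 235), Z30 2 far below for Ldsdh1 (897.2, against 2656 to 3188) and ZMM far below for y (73.9, against 158 to 214). The array far off was MZM or a member of the block in 4 of the 6.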

How the results depend on the processing

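The same 5 were called with a stricter filter, a floor at the 10th percentile or a robust variance, and were among 6 called without a floor. With quantile normalization there were 4 calls, which held 3 of the 5, without Mgstl and 143461_at. With X origin alone in the model there were 7, which held 4 of the 5, without CG9360. There were 9 calls with the array block (7 X-linked) and 9 with it and without MZM (7 X-linked). Without the filter on dim probe sets there were 2 (1 X-linked), which held 1 of the 5, CG15209. None was called in limma after median centring, without the variance trend, or with the block and no trend (200, 212 and 400 at an unadjusted p under 0.05). Within the 8 arrays outside the block and within the 6 lines limma also called 0 (275 and 736 at an unadjusted p under 0.05). Leaving out single arrays gave 0 to 5 calls, 0 to 4 of them X-linked. X-linked probe sets at an unadjusted p under 0.05 numbered 111, or 177 with the block, 167 without the filter and 84 to 148 without single arrays. Those on the large autosomal arms numbered 63, or 161, 221 and 36 to 233, and 97 within the 8 arrays. The causes were not tested. Of 42 named probe sets, 41 kept their direction under each alternative in which they were tested, 24 or 25 of them. Most of the 42 have groups that do not overlap, and others were chosen after their values were seen. This count was thus largely fixed by the selection and is no further support. CCT6 ranged from -0.279 (without MZZ) to 0.0367 (without ZZM) when single arrays were left out, and was 0.0144 with the block and without MZM, a change of sign in the last 2.

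Replicate numbers are shared by the parents alone. Fr 1 and Z30 1 deviated from their strain means together (correlation 0.642 across genes), but nothing in the labels says that a number marks a shared batch. With the parents' numbers as a replicate block and the lines as a block of their own, there were 7 calls, which held all 5, and 6 were X-linked. Those added to the 5 were Obp18a and a further probe set of Mgstl. CCT2, Nep6 and 142855_at, called with the array block, did not pass here (adjusted p = 0.0610, 0.0768 and 0.0670 in limma).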

Other observations

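Genes of chromosome 4, the smallest autosome, whose origin the labels do not give, tended to have higher fitted values with the Z30 X. Of 55 tested probe sets 49 were positive, with a median of 0.37 log2 units, 0 calls in limma and 1 at an unadjusted p under 0.05. Without MZM the median was 0.03 and 36 were positive. On MZM itself the median deviation of these probe sets from their mean over arrays was -1.08, on Fr 1 it was -0.36, and on the 8 other arrays it lay between -0.04 and 0.30. The part of the MZM array in this shift beyond these values was not tested.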
